A study of Mus musculus with 17 samples.

Results

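The 4 ERBB receptor genes (Egfr, Erbb2, Erbb3 and Erbb4) and 6 genes for their ligands (Egf, Areg, Ereg, Hbegf, Tgfa and Btc) were followed in mouse prostate and prostate tumours. The 10 genes were taken by name as members of the family, out of 13905 genes in the genotype libraries and 39179 in the libraries of an inducible model, and all 10 were listed and passed the filter on low values in both tables. RNA sequencing had been done on 17 frozen samples from C57BL/6 mice. The libraries used for the results came from wild-type prostate at 12 months (n = 3), from tumours of Ctnnb1pc(ex3)delta/+ mice at about 12 months (n = 3, the Ctnnb1 tumours), from tumours that carry that allele with a further engineered change at about 6 to 8 months (n = 3, the combined tumours), and from tumours of an inducible model of that genotype at about 15 months. Tumours of the inducible model had been mock treated (n = 2) or given androgen deprivation, ADT in the labels (n = 3), and both of these groups carry the same alleles. The Ctnnb1 allele lacks exon 3, the exon that encodes the phosphorylation sites through which beta-catenin is marked for destruction. The inducible model uses CreERT2, a Cre recombinase that is switched on by tamoxifen. The labels do not explain "pc" or say that each library came from a separate mouse, so p-values measure the spread between these samples, which may be technical. Age differed with genotype between the combined and wild-type groups, and the 2 cannot be told apart there.

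ERBB receptors are tyrosine kinases that work as pairs. EGF, amphiregulin (Areg) and TGF-alpha (Tgfa) bind EGFR, while betacellulin (Btc), HB-EGF (Hbegf) and epiregulin (Ereg) bind EGFR and ERBB4. ERBB3 has a weak kinase and binds neuregulins, and ERBB2 has no known ligand of its own and serves as the partner of the others. Most ligands are made as membrane proteins and are cut loose by ADAM proteases, and the paired receptors signal through RAS and ERK and through PI3 kinase. In the prostate, EGF is a known product of the secretory epithelium and is present in seminal fluid.

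The values are gene counts that the authors scaled to a common level within each set of libraries, and the totals of the scaled values ran from 45675083 to 47248750 in wild type and from 32455483 to 35120175 in the Ctnnb1 and combined tumours. They ran from 30591734 to 32791101 in the inducible model. The 5 markers of luminal epithelium used here summed to between 69794 and 81928 in wild type, 79385 and 111297 in the Ctnnb1 tumours and 105337 and 151108 in the combined tumours. The sums thus did not fall below the wild-type range. Of the 5, 2 rose and 1 fell in the Ctnnb1 tumours, and 3 rose and 1 fell in the combined tumours. The marker that fell was Epcam in both (-0.98 and -1.01, log2), and these calls were lost with equal totals. Other cell types differed between the groups. All 8 smooth muscle markers fell in both tumour genotypes, from sums of 142802 to 182558 in wild type to 1805 to 3492 in the Ctnnb1 and 5912 to 19653 in the combined tumours. Myh11, the smooth muscle myosin, changed by -7.30 and -5.02 (log2). Nerve markers fell in 6 of 6 (Ctnnb1) and 5 of 6 (combined), from sums of 1924 to 2844 to sums of 264 to 303 and 313 to 375. Macrophage markers rose in 6 and 7 of 7, from sums of 4182 to 4454 to 8699 to 18467 and 12128 to 42926. Neutrophil markers rose in 3 and 4 of the 4 listed, from 58 to 75 to 157 to 510 and 662 to 1772. Squamous markers rose in 6 of the 7 listed in both, from 467 to 700 to 1701 to 4456 and 4272 to 5535, and of these Krt6b was listed at 0 in all wild-type libraries. Krt6a, Krt6b, Krt16, S100a8, S100a9 and Cxcr2 had wild-type means under 14.1, the lowest mean of a listed gene. They are listed through their tumour values, so the squamous and neutrophil counts are partly set by the listing. Fibroblast markers rose in 5 of 7 in the combined tumours, from sums of 34386 to 39705 to 46450 to 622451, and endothelial markers in 4 of 6, from 3972 to 4706 to 5367 to 10067. In the Ctnnb1 tumours these sums were 25113 to 32763 and 4674 to 5380, with 1 fibroblast marker lower, and 1 endothelial marker higher and 1 lower. Basal markers had a median change of -1.06 (Ctnnb1) and -1.19 (combined). Of 6, 1 was called lower in the Ctnnb1 tumours, and 1 lower and 1 higher in the combined tumours. Their sums overlapped, with 11953 to 19380 in wild type, 5499 to 12586 and 7565 to 19223. Skeletal muscle markers fell in 5 and 6 of 6, from sums of 9066 to 123245 to 54 to 8954 and 97 to 1059. Seminal vesicle secretion genes varied within wild type itself, from a sum of 479326 to 4638336. In bulk tissue, fewer cells of a type and less RNA per cell cannot be told apart.

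Per kilobase of exon, the order of the 10 levels in wild type was Egf (3148 ± 144, SD, n = 3), Erbb3 (651 ± 19.1), Erbb2 (551 ± 17.2), Tgfa (101 ± 3.09), Egfr (99.8 ± 8.87), Hbegf (50.8 ± 4.54), Erbb4 (16.2 ± 2.22), Btc (14.7 ± 0.557), Areg (4.39 ± 0.475) and Ereg (2.26 ± 2.66). Tgfa and Egfr, Erbb4 and Btc, and Areg and Ereg are neighbours in this order that did not differ beyond their spread. In the Ctnnb1 tumours the order was Erbb3 (1413 ± 73.1), Erbb2 (746 ± 55.9), Areg (412 ± 171), Tgfa (387 ± 48.1), Btc (165 ± 41.3), Egfr (135 ± 8.34), Hbegf (59.2 ± 16.6), Egf (28 ± 10.8), Ereg (5.57 ± 2.31) and Erbb4 (0.324 ± 0.324). Egf thus went from the first to the eighth place and Areg from the ninth to the third. Areg and Tgfa overlapped there, and so did Btc and Egfr within their SDs. In the combined tumours it was Areg (1067 ± 743), Erbb3 (711 ± 119), Erbb2 (491 ± 48.1), Tgfa (356 ± 137), Btc (211 ± 74.4), Egfr (152 ± 16.8), Hbegf (87.8 ± 35.9), Egf (66.7 ± 46.8), Ereg (13 ± 8.02) and Erbb4 (0.135 ± 0.0935), and the spread of Areg reached down to that of Tgfa. In the inducible model, which was scaled apart, Areg (1276 ± 775, n = 2) and Erbb3 (810 ± 292) had the highest means in the mock libraries and overlapped, with Areg ahead in library 1 and Erbb3 in library 2, while with ADT Erbb2 (372 ± 58.5, n = 3) and Tgfa (357 ± 50.02) led, did not differ beyond their spread, and stood before Erbb3 (269 ± 85.3) and Areg (153 ± 71.6).

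**Figure D1:**
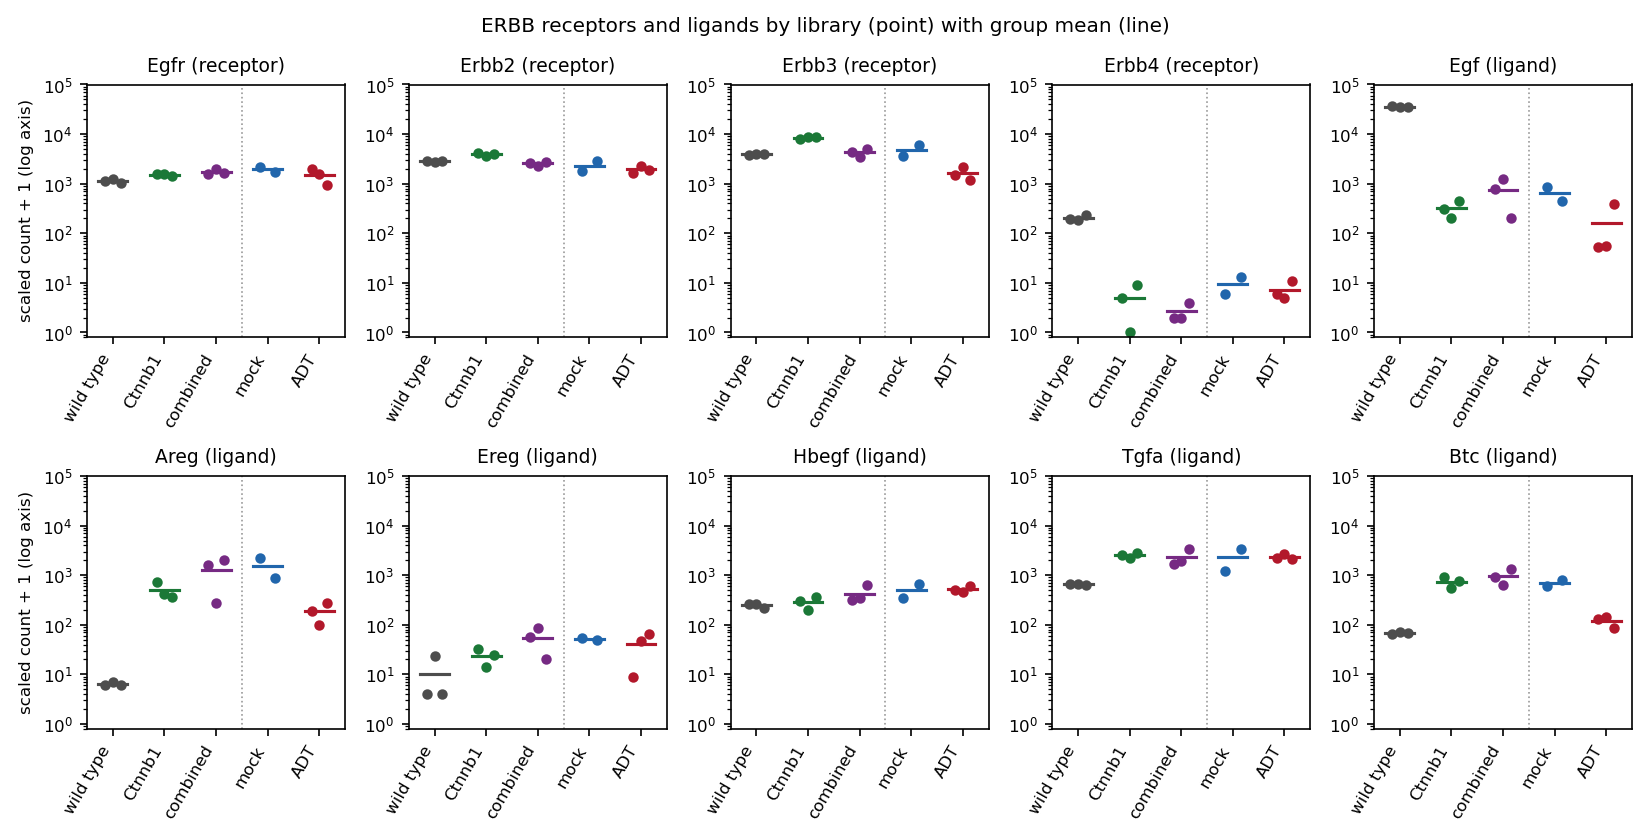
Scaled count plus 1 (log axis) of each receptor and ligand gene in each library (point), with the group mean (line), for the genotype libraries left of the dotted line and the separately scaled inducible model right of it. Egf goes from at least 34554 in wild type to 1261 or less in every Ctnnb1 and combined library, and among the genotype libraries Areg goes from at most 6 in wild type to at least 280 in the tumours.

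Against wild type, 6 of the 10 genes rose and 2 fell in the Ctnnb1 tumours. Of all genes tested, 28.9% rose and 29.6% fell, 58.5% in all. In the combined tumours 5 rose and 2 fell, where 28.3% of all genes rose and 29.5% fell, 57.8% in all. Values did not overlap wild type in 6 higher and 2 lower members of the Ctnnb1 tumours, where 35.9% of all genes were higher and 35.6% lower in this way (71.5% in all), and in 5 higher and 2 lower members of the combined tumours, where the shares were 32.1% and 34% (66.1% in all). These shares are high, so the counts of members are read against them. Areg and Ereg had wild-type means under 14.1, the lowest mean of a listed gene, so they are listed through their tumour values. The median change of the members was 0.78 (log2) in the Ctnnb1 and 0.66 in the combined tumours, beside 0.00281 and -0.0114 over all genes. A change was called at an adjusted p under 0.05 in limma's moderated test. Changes are on the scale of log2(value + 1), and both comparisons share the 3 wild-type libraries.

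Erbb3 was the receptor gene with the highest level per kilobase in the Ctnnb1 tumours. Its scaled counts were 3819, 3889 and 4044 in wild type and 7991, 8761 and 8745 in the Ctnnb1 tumours, and the lowest Ctnnb1 library lay well above the highest wild-type library. The change was 1.12 ± 0.11 (log2, SE, adjusted p = 1.23e-04). In the combined tumours Erbb3 stood at 4397, 3508 and 4921, a range that spans the wild-type values, with a change of 0.11 ± 0.11 (adjusted p = 0.423). Without combined library 11 the change was 0.25 (adjusted p = 0.0285), and with libraries scaled to equal totals it was 0.63 (adjusted p = 0.00191). The median change over all genes was 0.50 under that scaling.

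Erbb2 stood at 2920, 2767 and 2924 in wild type and at 4110, 3556 and 3988 in the Ctnnb1 tumours, where it rose by 0.43 ± 0.09 (adjusted p = 0.0032) with no overlap. The combined tumours had 2595, 2294 and 2792. Their change of -0.17 ± 0.09 (adjusted p = 0.127) passed the test without combined library 12 (-0.23, adjusted p = 0.0475) and turned to 0.35 (adjusted p = 0.0111) with equal totals. That scaling put the median change over all genes at 0.50, so the 0.35 lies under the median. No direction is therefore given for Erbb2 in the combined tumours.

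Egfr rose in both tumour genotypes. Its values were 1130, 1231 and 1030 in wild type, 1553, 1604 and 1421 in the Ctnnb1 tumours and 1599, 1945 and 1634 in the combined tumours. Every tumour library was above every wild-type library. The changes were 0.43 ± 0.10 (adjusted p = 0.00679) and 0.61 ± 0.10 (adjusted p = 0.00129), small beside those of the ligands. With libraries scaled to equal totals, the median change over all genes was 0.49 in the Ctnnb1 and 0.50 in the combined comparison. Egfr then changed by 0.93 and 1.12. This scaling multiplies each library by 1 constant, which moves Egfr and the median alike, so it cannot test the lead of Egfr over the median.

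Erbb4, the receptor for neuregulins and several EGF-like ligands that has an active kinase, fell to near 0. Wild-type libraries had 189, 181 and 232, the Ctnnb1 tumours 4, 0 and 8 and the combined tumours 1, 1 and 3. The groups were far apart. The changes were -5.82 ± 0.80 (adjusted p = 4.66e-04) and -6.31 ± 0.80 (adjusted p = 3.14e-04). At such values the pseudocount sets the size: with 10 in place of 1 they were -3.94 and -4.17, still called. Without Ctnnb1 library 14, where Erbb4 was listed at 0, the Ctnnb1 change was -4.90, and without library 15 it was -6.49. Smooth muscle and nerve markers fell in the same libraries, and their part in the fall of Erbb4 was not tested.

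Egf had the highest level of the ligand genes in wild type. It stood at 37364, 34560 and 34554 there, at 307, 198 and 442 in the Ctnnb1 tumours and at 789, 1261 and 207 in the combined tumours. No tumour library came near the wild-type range. The changes were -6.88 ± 0.59 (adjusted p = 5.58e-05) and -5.91 ± 0.59 (adjusted p = 1.02e-04), and the second was -5.15 without combined library 12. Antisense genes share 5.38% and 4.43% of the Egf exon bases, and whether counting used the strand is not given in the sources used here. The summed luminal markers were at least 79385 in the Ctnnb1 and at least 105337 in the combined libraries against 69794 to 81928 in wild type, and the lowest Ctnnb1 sum lay within the wild-type range. Within this list Krt8 rose by 1.07 in the Ctnnb1 and 1.41 in the combined tumours. Epcam fell by 0.98 on the log2 scale in the Ctnnb1 tumours (adjusted p = 0.0676 with equal totals) and by 1.01 in the combined tumours (adjusted p = 0.0681 with equal totals). Smooth muscle, nerve and seminal vesicle markers were lower in the same tumours, and the part of all these markers in the result was not tested.

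Areg, which encodes amphiregulin, was near 0 in wild type and rose in every tumour library. Wild-type libraries had 5, 6 and 5, the Ctnnb1 tumours 739, 409 and 355 and the combined tumours 1605, 280 and 2005. The combined tumours split widely, with library 11 below all Ctnnb1 libraries and the others above them. The changes were 6.24 ± 0.68 (adjusted p = 1.6e-04) and 7.26 ± 0.68 (adjusted p = 7.55e-05). With a pseudocount of 10 they were 4.99 and 6.00, and without combined library 11 the second was 8.15. Combined library 11 had the highest fibroblast marker sum of the 3 (622451, against 305048 and 46450 in libraries 10 and 12), and the part of this in the spread of Areg was not tested.

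Btc, which encodes betacellulin, rose next most. Its values were 64, 69 and 67 in wild type, 928, 555 and 749 in the Ctnnb1 tumours and 926, 632 and 1303 in the combined tumours. The wild-type values were close together and all tumour values were at least 555. The changes were 3.43 ± 0.27 (adjusted p = 4.19e-05) and 3.76 ± 0.27 (adjusted p = 2.7e-05).

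Tgfa rose from 653, 675 and 635 in wild type to 2538, 2189 and 2812 in the Ctnnb1 and 1668, 1935 and 3320 in the combined tumours. The groups did not overlap. The changes were 1.93 ± 0.23 (adjusted p = 2.34e-04) and 1.75 ± 0.23 (adjusted p = 3.64e-04).

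Ereg stayed low throughout. Its values were 3, 22 and 3 in wild type, 32, 13 and 24 in the Ctnnb1 tumours and 57, 85 and 19 in the combined tumours, and wild-type library 2 overlapped both tumour groups. Its change in the combined tumours, 2.69 ± 0.83 (adjusted p = 0.0229), was called, but the adjusted p was 0.0767 without wild-type library 1, 0.075 without wild-type library 3, 0.0647 without combined library 10 and 0.0744 without combined library 11. Without wild-type library 2 the change was 3.54, without combined library 12 it was 3.30, and with a pseudocount of 10 it was 1.70. The Ctnnb1 change was 1.66 ± 0.83 (adjusted p = 0.118), and it was called without wild-type library 2 (2.499, adjusted p = 0.0243). Macrophage markers were higher in the same tumours, and their part in Ereg was not tested.

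Hbegf differed least among the 6 ligand genes followed. It stood at 258, 258 and 220 in wild type, 306, 198 and 355 in the Ctnnb1 tumours and 311, 338 and 624 in the combined tumours. The Ctnnb1 values overlapped wild type (0.18 ± 0.30, adjusted p = 0.618). All combined values were above wild type, with a change of 0.72 ± 0.30 that did not pass the test (adjusted p = 0.0705). It did so without combined library 10 (0.91, adjusted p = 0.0484) and with equal totals (1.23, adjusted p = 0.00707).

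**Figure D2:**
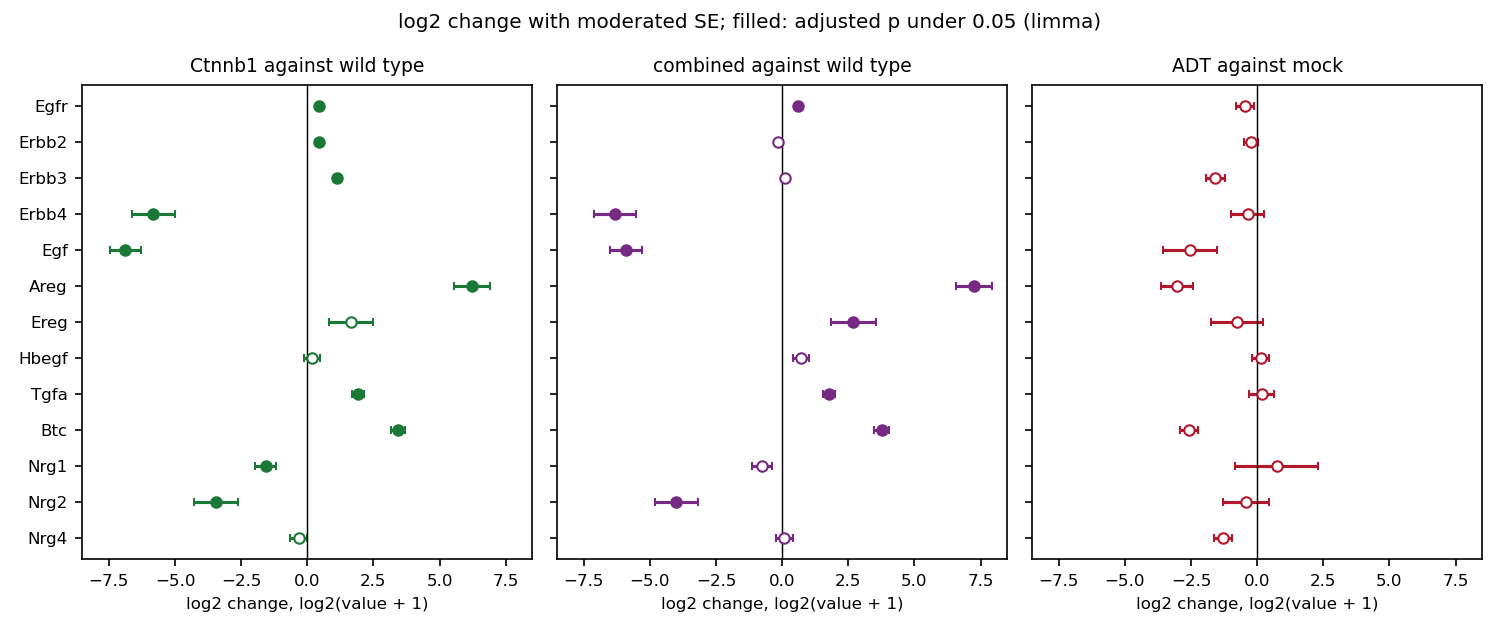
Change of each ERBB gene on the log2(value + 1) scale (x axis) with its moderated SE (bar) in the 3 comparisons; filled points have an adjusted p under 0.05 in limma. Egf and Erbb4 lie far left and Areg, Btc and Tgfa right of 0 in both tumour genotypes, and no point is filled for ADT against mock.

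Among the 6 ligand genes followed, Egf, Areg and Btc had the largest changes in the Ctnnb1 tumours, and the 250 bases before their starts are shown for that reason. Areg and Btc also lie near each other on chromosome 5. The sequences come from RefSeq on GRCm38.p6, are given 5′ to 3′ on the gene's own strand, and lie at chr5:91139349-91139598 (plus strand) for Areg, chr5:91402995-91403244 (minus strand) for Btc and chr3:129755323-129755572 (minus strand, the first of 2 listed starts) for Egf. Capitals mark a match to the motifs searched.
Areg: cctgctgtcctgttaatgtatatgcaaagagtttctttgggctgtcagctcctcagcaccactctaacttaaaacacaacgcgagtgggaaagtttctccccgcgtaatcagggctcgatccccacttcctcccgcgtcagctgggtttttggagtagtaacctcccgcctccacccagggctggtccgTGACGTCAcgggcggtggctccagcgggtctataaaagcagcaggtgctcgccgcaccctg
Btc: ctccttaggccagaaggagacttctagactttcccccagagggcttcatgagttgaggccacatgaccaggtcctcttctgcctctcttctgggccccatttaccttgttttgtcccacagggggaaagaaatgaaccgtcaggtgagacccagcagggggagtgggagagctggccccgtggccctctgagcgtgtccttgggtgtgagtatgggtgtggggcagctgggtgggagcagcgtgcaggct
Egf: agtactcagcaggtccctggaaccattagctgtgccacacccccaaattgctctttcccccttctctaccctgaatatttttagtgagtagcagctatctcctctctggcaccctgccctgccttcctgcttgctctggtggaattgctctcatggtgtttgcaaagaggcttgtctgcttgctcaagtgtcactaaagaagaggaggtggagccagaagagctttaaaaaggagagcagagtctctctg
Each window was searched on both strands for TGACGTCA (the cyclic AMP response element), CTTTGAT (bound by TCF and LEF factors), TGANTCA (bound by AP-1) and AGAACA (a half-site of the androgen receptor). Areg held 1 match, the palindrome TGACGTCA at -61 to -54 from the start, which 1.55% of 32851 promoter windows of the same length hold. Epgn held 1 AGAACA, at -113 to -108. Btc, both starts of Egf, Tgfa, Egfr, Erbb2 and Erbb4 held no match to any of these letters. CTTTGAT was found in 3.21%, TGANTCA in 6.75% and AGAACA in 16.1% of all windows. A match is a description of letters and was not tested as a binding site.

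Of the neuregulins, which bind ERBB3, ERBB4 or both, 3 were listed in the genotype libraries, and none of them rose. Nrg2 fell from 209, 190 and 159 in wild type to 31, 7 and 18 in the Ctnnb1 tumours and 38, 9 and 3 in the combined tumours, by -3.46 ± 0.82 (adjusted p = 0.00718) and -4.00 ± 0.82 (adjusted p = 0.00354). With a pseudocount of 10 the changes were -2.86 and -3.10, and the second was -4.88 without combined library 10 and -3.23 without library 12. Nrg1 had 63, 77 and 58 in wild type, 22, 17 and 26 in the Ctnnb1 tumours, where it fell by 1.57 on the log2 scale (adjusted p = 0.00823), and 51, 22 and 48 in the combined tumours (-0.78, adjusted p = 0.115). Nrg4 overlapped wild type in both, with 140, 110 and 114 against 86, 88 and 116 and against 99, 218 and 96. Nerve markers fell in the same tumours, and their part in the lower Nrg1 and Nrg2 was not tested. Epgn and Nrg3 are listed in the inducible model only.

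The makeup of the ligand pool differed accordingly. Per kilobase, Egf was 94.4% to 95.0% of the summed ligand transcripts in the wild-type libraries, 2.05% to 3.88% in the Ctnnb1 tumours and 0.706% to 12.8% in the combined tumours. Areg made up 28.9% to 46.7% in the Ctnnb1 and 26.5% to 68.4% in the combined tumours, and at most 0.152% in wild type. Tgfa made up 30.0% to 42.9% and 13.3% to 34.2%, against 2.89% to 3.202% in wild type. In every tumour library of these genotypes Areg or Tgfa was therefore the leading ligand transcript.

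The summed ligands stood at 2.52 ± 0.131 times the summed receptors in wild type (SD, n = 3), 0.462 ± 0.104 in the Ctnnb1 tumours and 1.29 ± 0.514 in the combined tumours. The order turns when Egf is left out: the ratios were then 0.131 ± 0.00964, 0.449 ± 0.103 and 1.24 ± 0.554. The Egf length matters to the wild-type ratio, since its summed exons span 11275 bases and its longest transcript 4761; with the longest transcript of each gene the ratio was 5.71 ± 0.296 in wild type, 0.567 ± 0.113 in the Ctnnb1 and 1.498 ± 0.477 in the combined tumours. The receptor sums were 1318 ± 22.2, 2293 ± 46.7 and 1355 ± 152 per kilobase. Erbb3 made up 58.9% to 63.9% of them in the Ctnnb1 tumours, 48.4% to 50.05% in wild type and 48.8% to 54.6% in the combined tumours. These are transcript sums and carry no test here.

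**Figure D3:**
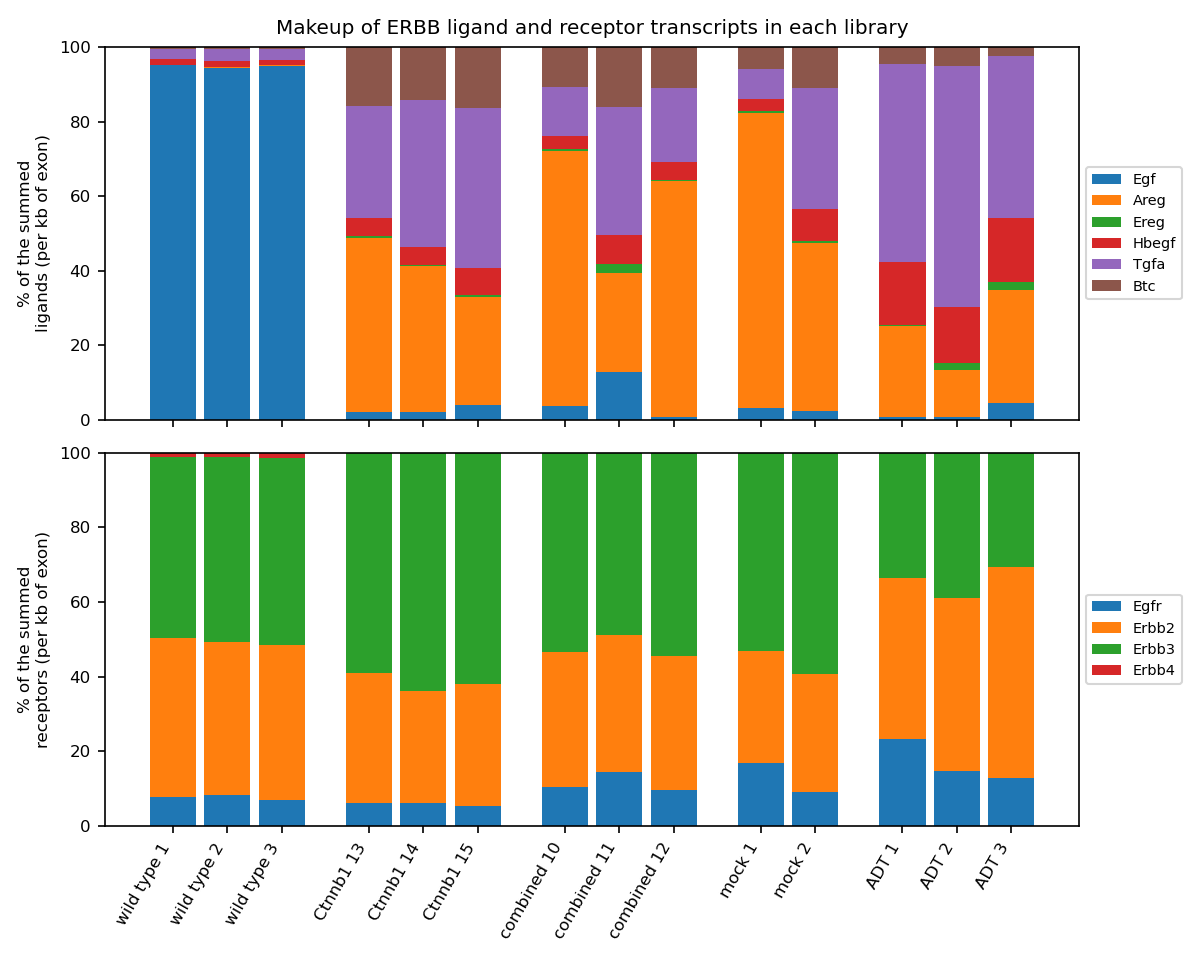
Share (%) of each gene in the summed ligand (top) and receptor (bottom) values per kilobase of exon, with 1 bar for each library. Egf fills at least 94.4% of the ligand bar in wild type and at most 12.8% in any tumour, and Erbb3 takes 30.4% to 39.0% of the receptor bar in the ADT libraries against 53.1% and 59.2% in the mock libraries.

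In the inducible model, ADT was compared with mock treatment, 3 libraries against 2. None of the 10 genes passed the test, where 2 of 23289 genes did (0.00859%). At an unadjusted p under 0.05, 3 of the 10 were lower with ADT, Areg, Btc and Erbb3, beside 8.79% of all genes lower and 16.2% in either direction. Egf, Areg, Btc and Erbb3 were lower in all 3 ADT libraries than in both mock libraries, beside 16.8% of all genes, and no member was higher without overlap. Without mock library 1, mock library 2 or any single ADT library, no gene at all was called.

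Areg stood at 2216 and 885 in the mock libraries and at 187, 98 and 272 with ADT. The highest ADT value was well under the lower mock value. The change was -3.03 ± 0.61 (adjusted p = 0.156). Btc stood at 612 and 807 against 132, 145 and 85, a change of -2.57 ± 0.33 (adjusted p = 0.105). Erbb3 stood at 3631 and 6112 against 1476, 2190 and 1194, a change of -1.59 ± 0.36 (adjusted p = 0.181). Egf stood at 855 and 443 against 53, 55 and 380, a change of -2.56 ± 1.02 (adjusted p = 0.325), with ADT library 3 close to the lower mock library.

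The other members overlapped between mock and ADT. Tgfa had 1231 and 3421 against 2175, 2685 and 2082, and the mock libraries alone spanned more than the ADT libraries. Hbegf had 350 and 660 against 513, 467 and 614. Egfr had 2159 and 1735 against 1936, 1547 and 948, and Erbb2 had 1779 and 2841 against 1642, 2251 and 1928. Erbb4 (5 and 12 against 5, 4 and 10) and Ereg (53 and 48 against 8, 47 and 65) were low in both groups. Of the other ligands, Nrg4 was lower in all ADT libraries (170 and 123 against 52, 70 and 56; -1.28, adjusted p = 0.196), Epgn had 23 and 27 against 9, 6 and 29, and Nrg3 was at 1 or less. Nrg1 had 54 and 33 against 517, 16 and 41, and the high value belongs to ADT library 1 alone.

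In the ADT libraries Tgfa made up 43.4% to 64.7% of the summed ligands and Areg 12.6% to 30.3%, while in the mock libraries Areg made up 79.0% and 44.9% and Tgfa 8.21% and 32.5%. The ratio of ligands to receptors was 2.03 and 0.945 in the mock libraries and 0.862, 0.685 and 1.13 with ADT, so the groups overlapped. The receptor sums were 1136 and 1715 against 732, 933 and 653. The 5 luminal markers summed to 98104 and 115735 in the mock and to 52618 to 70454 in the ADT libraries, and 3 of 5 had an unadjusted p under 0.05, all lower with ADT. They were Epcam, an epithelial adhesion protein, which changed by -1.78, E-cadherin (Cdh1), by -1.56, and keratin 8 (Krt8), by -0.76, with adjusted p of 0.187, 0.181 and 0.128. No luminal marker was at 0 in all libraries of a group. Endothelial markers summed to 26112 and 10623 in the mock and to 7929 to 8232 in the ADT libraries, with Vwf at -1.73 (adjusted p = 0.128). Macrophage sums (85767 and 26943 against 13674 to 28896) overlapped, with 2 of 7 markers lower at an unadjusted p under 0.05, among them Cd14 (-1.17, adjusted p = 0.167). Neutrophil sums (1341 and 3063 against 1162 to 1627) overlapped too, with Csf3r at -1.05 (adjusted p = 0.232). The part of these markers in the lower Areg, Btc and Erbb3 was not tested.

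The proteases and helpers that release the ligands were also measured, as a list of 13 genes. In the Ctnnb1 tumours 6 rose and 1 fell, and in the combined tumours 10 rose and none fell, with medians of 0.38 and 0.78. Over all genes, 28.9% rose and 29.6% fell in the first comparison and 28.3% and 29.5% in the second, and these shares are the background of the lists that follow as well. Genes named here and for the lists that follow come from the 4 with the smallest p in a comparison, apart from Lrig1, Lrig3 and Ptpn1. Not all of those 4 are named. Adam17 encodes the main sheddase of amphiregulin and TGF-alpha. It rose from 1274 ± 53.9 (SD, n = 3) to 2298 ± 127 in the combined tumours (0.85 ± 0.09, adjusted p = 1.22e-04) and by 0.38 in the Ctnnb1 tumours (adjusted p = 0.00641). The genes for its iRhom partners rose too in the Ctnnb1 tumours, Rhbdf1 by 1.37 and Rhbdf2 by 0.98, and in the combined tumours by 0.78 and 1.13. Frmd8, whose protein stabilises the iRhom complex, rose from 794, 738 and 732 in wild type to 2203, 1874 and 1970 in the Ctnnb1 and 2026, 1957 and 2127 in the combined tumours (1.41 ± 0.08 and 1.43 ± 0.08). Adam19 rose by 2.04 and 2.65. Adam8, a protease of leukocytes and tumour cells, rose by 2.46 in the Ctnnb1 (adjusted p = 0.00286) and by 3.97 in the combined tumours. Neutrophil markers rose as well in the same tumours, with Csf3r by 2.25 and 3.75 (from 37.3 ± 11.02 to 530 ± 198 in the combined tumours). That association was not tested. With ADT, no gene of the list passed the test. At an unadjusted p under 0.05, 3 were lower (8.79% of all genes were) and 1 was higher, Adam10 (0.41, adjusted p = 0.236). The lower ones were Bace2 (-1.48, adjusted p = 0.128), Rhbdf1 (-0.39, adjusted p = 0.261) and Rhbdf2 (-0.66, adjusted p = 0.279).

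Of 24 genes for feedback inhibitors and receptor turnover, 13 rose and 3 fell in the Ctnnb1 and 10 rose and 2 fell in the combined tumours, with medians of 0.42 and 0.38. In either direction 58.5% and 57.8% of all genes were called, so the combined count is no higher than that of genes at large. The 3 that fell in the Ctnnb1 tumours were Lrig1 (-2.62, adjusted p = 0.00134), Lrig3 (-1.21, adjusted p = 0.0405) and Ptpn1 (-0.37, adjusted p = 0.0406). The change of Lrig1 was the largest of the list there. In the combined tumours Lrig1 (-1.17, adjusted p = 0.0487) and Spry1 fell. Sh3kbp1, which encodes a CBL-binding protein of receptor endocytosis, rose by 1.23 ± 0.14 and 1.99 ± 0.14. Socs4 rose by 0.75 and 0.61. Spred1 and Spred2, which encode inhibitors of the RAS to ERK step, rose by 1.07 and 1.01 in the Ctnnb1 tumours. In the combined tumours Spred1 rose by 0.45 (adjusted p = 0.0391) and Spred2 was not called (0.22, adjusted p = 0.127). Spred3 rose by 0.96 in the Ctnnb1 and by 1.28 in the combined tumours. Spry1, a Sprouty inhibitor, fell by 0.63 on the log2 scale in the combined tumours, but its adjusted p was 0.422 with equal totals. With ADT, Spry1 (-0.81, adjusted p = 0.188) and Errfi1 (-0.79, adjusted p = 0.232), which encodes a direct inhibitor of the EGFR kinase, were the 2 of the list that were lower at an unadjusted p under 0.05 (8.79% of all genes), and Spred2 (0.86, adjusted p = 0.238) was the 1 that was higher.

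Adaptors and the core of the cascade were called about as often as other genes (58.5% and 57.8%). Of 28 genes tested, 7 rose and 7 fell in the Ctnnb1 and 8 rose and 9 fell in the combined tumours, with medians of 0.0229 and -0.00883 that lie close to those of all genes. Grb7, an adaptor of ERBB2 and ERBB3, stood at 1882, 1620 and 1827 in wild type, 5980, 5725 and 5723 in the Ctnnb1 tumours and 2780, 2444 and 3544 in the combined tumours. It rose by 1.71 ± 0.13 (adjusted p = 3.39e-05) and 0.70 ± 0.13 (adjusted p = 0.00188), both larger than the changes of Erbb2 itself. Map2k1, an ERK kinase gene, rose by 0.30 (adjusted p = 0.00482) in the Ctnnb1 and by 0.73 in the combined tumours. Map2k2 changed by -0.64 in the Ctnnb1 and by -0.59 (adjusted p = 7.24e-04) in the combined tumours. The Ctnnb1 call of Map2k2 was lost with equal totals (-0.15, adjusted p = 0.195). With ADT, Stat5a, a transcription factor gene, stood at 7375 and 5201 against 1694, 1037 and 1537 (-2.15 ± 0.29, adjusted p = 0.106).

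Of 19 listed genes that respond to ERK signalling, 14 rose and none fell in the Ctnnb1 tumours, and 13 rose and none fell in the combined tumours, with medians of 1.01 and 1.141, where 28.9% and 28.3% of all genes rose. The list includes the members Ereg and Hbegf. Egr1, an immediate early transcription factor gene, stood at 445, 575 and 669 in wild type, 5357, 7100 and 4458 in the Ctnnb1 and 2715, 2971 and 5018 in the combined tumours, with changes of 3.31 ± 0.27 and 2.63 ± 0.27. The second had an adjusted p of 1.11e-04, and of 0.0559 in a fit that took in all 12 genotype libraries. Phlda1 rose by 2.33 and 2.201, Ier3 by 2.66 and 2.95, and Plaur, the urokinase receptor gene, by 2.59 and 2.70. Macrophage and neutrophil markers rose in the same tumours, and their part in Plaur and the others was not tested. With ADT the list was mixed: at an unadjusted p under 0.05, 3 of 20 were higher and 1 was lower, beside 16.2% of all genes in either direction. Cyclin D1 (Ccnd1) stood at 3939 and 10712 in the mock libraries and at 37132, 22101 and 31248 with ADT (2.18 ± 0.49, adjusted p = 0.181), and Fosl1 at 86 and 75 against 307, 167 and 283 (1.59 ± 0.37, adjusted p = 0.182). Ier3 was at 2783 and 2944 against 1767, 956 and 1125 (-1.21 ± 0.29, adjusted p = 0.187).

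The genes Epgn, Ereg, Areg and Btc lie within 375531 bases of chromosome 5 (GRCm38), with Areg at 91139599 to 91148432 on the plus strand and Btc at 91357261 to 91402994 on the minus strand, and their starts 263.4 kb apart. Listed genes within 250 kb of this stretch were taken by position: Cxcl3, Cxcl15, Cxcl1, Cxcl2 and Mthfd2l on the Epgn side and Parm1 on the Btc side. In the combined tumours all 6 were called higher, as were the 3 ligands of the stretch that are listed there, where 28.3% of all genes rose. The lowest mean of a listed gene over these libraries was 14.1. Cxcl1, Cxcl2, Cxcl3, Areg and Ereg had lower means in wild type, so they are listed through their tumour values. The count called higher is therefore partly set by the listing and cannot be read against the 28.3%. The Ereg call was lost on leaving out some libraries, as given above. In the Ctnnb1 tumours Cxcl15 (adjusted p = 0.23), Ereg (adjusted p = 0.118) and Parm1 were not called. Cxcl1, a neutrophil chemokine gene, had 4, 6 and 4 in wild type, 49, 10 and 103 in the Ctnnb1 and 156, 285 and 184 in the combined tumours, with changes of 2.78 ± 0.74 (adjusted p = 0.012) and 5.18 ± 0.74 (adjusted p = 5.74e-04). The Ctnnb1 change of Cxcl1 was 3.69 without Ctnnb1 library 14, 2.07 without library 15 and 1.80 with a pseudocount of 10, and the combined change was 3.85 with that pseudocount. Cxcl2 had 139, 542 and 328 in the combined tumours against 8, 4 and 4 in wild type. Cxcl3 was listed at 0 in all wild-type libraries and at 64, 377 and 67 in the combined tumours. Mthfd2l, which encodes a mitochondrial folate enzyme and lies between the chemokines and Epgn, changed by 0.42 and 0.54, and its Ctnnb1 call was lost without wild-type library 1 (adjusted p = 0.0674), wild-type library 2 (0.0681) or Ctnnb1 library 13 (0.0743). Parm1, beyond Btc, was at 1076, 717 and 903 in the Ctnnb1 tumours against 1232, 924 and 1493 in wild type (-0.43, adjusted p = 0.1), with overlap, and it was called lower without wild-type library 2 (-0.61, adjusted p = 0.0317). Its rise of 0.63 in the combined tumours lost its call without wild-type library 1 (adjusted p = 0.0581), wild-type library 2 (0.0866) or combined library 10 (0.0833). With ADT none of the stretch passed the test: Areg and Btc changed by -3.03 and -2.57, and Cxcl1 by 0.24.

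**Figure D4:**
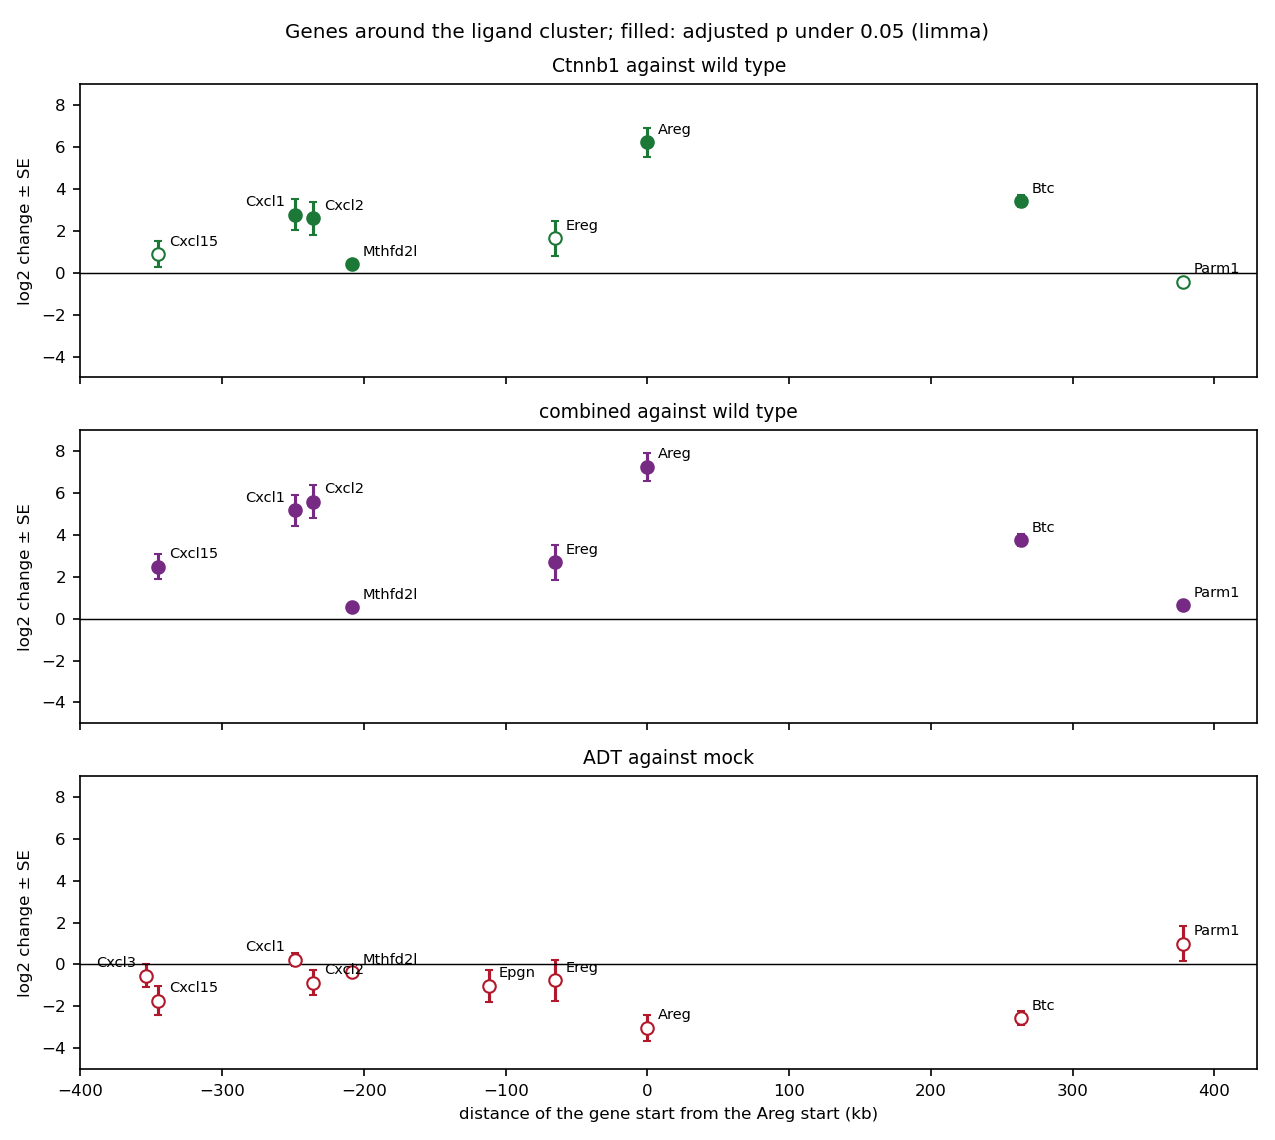
Change on the log2(value + 1) scale with SE (y axis) of the genes around the ligand cluster, placed by the distance of their start from the Areg start (kb, x axis); filled points have an adjusted p under 0.05 in limma, and Cxcl3 is not drawn where wild type is listed at 0. Areg and Btc change most among the ligands, and Mthfd2l between the chemokines and Ereg changes by 0.42 and 0.54.

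The genes with the pattern closest to each called member were found from the root mean square difference in log2 change from the wild-type mean over the 6 Ctnnb1 and combined libraries. For Tgfa these were Rnf43 (0.158), Lgr5 (0.179) and Gtf2ird1 (0.188). Lgr5 stood at 898, 842 and 669 in wild type, 2962, 2838 and 3174 in the Ctnnb1 and 2003, 1853 and 3478 in the combined tumours. For Btc they were Tnfrsf12a (0.294), Ticrr (0.295) and Cd44 (0.297), and for Erbb3 Marveld2 (0.119), Plxna3 (0.132) and Pdlim4 (0.132). For Egfr they were Polh (0.0651), Snx5 (0.0767) and Rfwd3 (0.0894), and for Erbb2 Rpl31 (0.0653), Rps3a1 (0.0661) and Snhg4 (0.0759). The members with the largest changes had larger differences from their nearest genes. This measure is not scaled to the size or spread of a change, so the differences cannot be ranked across members. The nearest were Krt36 (0.902), Krt6a (0.915) and Cdh17 (0.963) for Areg, and Pik3c2g (0.468), Rspo2 (0.624) and Prph (0.691) for Egf. For Erbb4 they were Dbh (0.573), Mrgpra6 (0.628) and Syt4 (0.749). For Ereg they were Arl11 (0.236), C1qc (0.283) and Casp1 (0.288). Krt6a is in the squamous marker list, and had 4.67 ± 1.15 in the wild-type libraries, 860 ± 452 in the Ctnnb1 and 767 ± 534 in the combined tumours.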

How the data were processed

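RNA of integrity above 7.3 was sequenced as paired reads of 90 nt, at least 6 Gb per sample, per the labels' protocols. The submitters' processing notes name TopHat2 2.1.0 and Bowtie2 2.2.6.0, the counter HTSeq 0.6.0, DESeq2 1.14.1 in R 3.2.3, FastQC 0.11.4 and the build GRCm38.p3, without settings. The deposited values are a score: gene counts that the authors scaled per library and rounded, since the libraries' median ratios to their set's geometric mean were 0.977 to 1.01. Raw counts were not used here, so depth per gene is unknown, no count test was run, and the design's test for scaled values was used. The wild-type, Ctnnb1 and combined libraries list 15195 features, of which 631 without an Entrez number, 118 repeated numbers and 389 repeating another gene's values were left out. The lowest mean of a kept gene was 14.1, so a gene missing from that table is not a gene without expression. The inducible libraries list 42847 features.

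Values were taken as log2(value + 1). Genes that reached a value of 1 in 3 or more of the 9 genotype libraries, and in 2 or more of the inducible libraries, were tested with limma 3.58.1 (R 4.3.3, trend in the prior variance). The 9 genotype libraries were fitted together and the inducible libraries alone, with Benjamini-Hochberg adjustment over all genes tested. The fit was checked on simulated data. A further genotype group (n = 3), scaled separately, entered only an alternative fit of 12 libraries; its values, the comparison between the 2 tumour genotypes and some marker genes, which were left out of their lists, are not reported here. Levels between genes were compared per kilobase of summed exon (GENCODE M21). Figures were drawn with matplotlib 3.10.9 in Python 3.11.15. The members, gene lists and markers were chosen with earlier results of these data known. Named genes are the members, the other ERBB ligands and 3 nearest genes for each called member. Genes of each list were named from the 4 with the smallest p in a comparison, apart from Lrig1, Lrig3 and Ptpn1, which were named because they fell. Not all of those 4 are named, and values in the other comparisons are given for some. Neighbours of the chromosome 5 ligands were added by position. The alternatives were other pseudocounts, filters, scalings, variance priors, sample sets and lengths, a replicate block and leaving out each library.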

Additional observations from a re-analysis of the deposited data

How the results depend on the processing

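In the Ctnnb1 comparison the calls of Egfr, Erbb2, Erbb3, Erbb4, Egf, Areg, Tgfa and Btc held in all 16 alternatives, as did those of Egfr, Erbb4, Egf, Areg, Tgfa and Btc in the combined comparison. Leaving out each library gave 8 to 9 called members (Ctnnb1), 6 to 8 (combined) and 0 (ADT). Over all genes the same fits called 6737 to 7373 (Ctnnb1) and 6697 to 8175 (combined) of at least 13899 tested, and 0 for ADT. Equal totals raised the share of calls that are higher, from 4017 of 8131 to 7797 of 9881 (Ctnnb1) and from 3936 of 8043 to 7970 of 9728 (combined). The median change over all genes was then 0.49 (Ctnnb1) and 0.50 (combined), which shifts single genes upward too. Under equal totals Erbb2 in the combined tumours changed by 0.35, Nrg4 in the Ctnnb1 tumours by 0.16, Parm1 there by 0.062, and Ereg in the Ctnnb1 tumours passed the test (2.08, adjusted p = 0.0496). On leaving out each library Nrg4 in the combined tumours ran from -0.30 to 0.28. The log2 ratio of ligands to receptors, tumour minus wild type, was -2.47 (Ctnnb1) and -1.05 (combined), and 1.75 and 3.12 without the ligand of the highest level, Egf in wild type; it was -3.85 and -2.76 without division by length, and -3.35 and -1.98 with the length of the longest transcript. The cause of changes under the other alternatives was not tested. For ADT against mock the log2 ratio difference was -0.66. It was 0.068 without division by length and 0.52 without the ligand of the highest level there, which is Areg.

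For ADT against mock, 2 genes were called; 5 with a pseudocount of 10, 172 with no filter, 60 with a mean of at least 50, 44 with equal totals, 29 with a robust prior variance, 0 without a trend in the prior variance, and 0 on leaving out each library in turn. The replicate block gave 0 calls, and the labels do not say that equal numbers pair the libraries. Same-numbered libraries deviated together with r = 0.27 and 0.15 across 14833 genes, but mock library 2 and ADT library 3 did so with r = 0.16. The deviations of the 2 mock libraries mirror each other, so these values cannot show whether libraries are paired. No member was called under any of these alternatives. On leaving out each library, uncalled ADT changes ran across 0 for Erbb2 (-0.56 to 0.11), Erbb4 (-0.91 to 0.20), Ereg (-1.31 to 0.13), Hbegf (-0.32 to 0.59), Tgfa (-0.57 to 0.90), Nrg1 (-0.69 to 1.77), Nrg2 (-1.26 to 0.39) and Nrg3 (-0.33 to 0.67). Depth per gene is unknown, which limits the low genes Erbb4, Ereg and Nrg3 most. With an arm left at 1 library, that library is assumed to vary like the other group.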
